A study of Macaca mulatta with 449 samples.

Results

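The substantia nigra (SN) and the ventral tegmental area (VTA) are neighbouring nuclei of the ventral midbrain, and the comparison described here set the 8 SN samples against the 8 VTA samples of a rhesus macaque (Macaca mulatta) brain atlas. The members were chosen by their sub-region labels alone: 16 of the 408 RNA-seq samples in the count table, 1 SN and 1 VTA sample from each of 8 animals, out of 51 sub-regions. The animals carry the numbers Rhesus 2, 3, 4, 6, 7, 8, 10 and 11. Rhesus 4, 7, 8 and 10 were young (3.2 to 5 years) and Rhesus 2, 3, 6 and 11 were mid-aged (9.8 to 10 years), with 2 males and 2 females at each age stage. All were healthy animals without treatment or genetic change, so region, age and sex are the only contrasts. By the methods of the study, 1 anatomist dissected small blocks of tissue and sampled only the centre of each nucleus. The blocks are bulk tissue, and total RNA depleted of ribosomal RNA was sequenced from each.

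Both nuclei house midbrain dopamine neurons. The SN holds the compact layer (pars compacta), whose dopamine axons reach mainly the dorsal striatum and which degenerates in Parkinson disease, and the reticular layer (pars reticulata), built of fast-firing GABA neurons. The VTA sends dopamine axons to the ventral striatum and cortex, and dopamine neurons are mixed there with many glutamate and GABA neurons. Dopamine is made from tyrosine by tyrosine hydroxylase (TH) and aromatic amino acid decarboxylase (DDC), packed into vesicles by SLC18A2 and taken back up by the dopamine transporter SLC6A3. DDC and SLC18A2 also serve serotonin neurons, which lie in the raphe nuclei near the VTA.

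The libraries held 8447320 to 15231743 counts in SN and 8837040 to 12165822 in VTA. In a principal component analysis of the 16 samples, the first component (28.75% of the variance) placed all 8 SN samples on the opposite side from all 8 VTA samples. Each of the 16 samples was most like a sample of its own region among the 16, and against all 408 samples 15 of 16 were, with the exception of VTA of Rhesus 7, which was nearest to the medulla oblongata of the same animal. Counts of Y-linked genes matched the labelled sex in 16 of 16 samples. Samples also differed within a region: SN of Rhesus 4 and Rhesus 6 held transcripts of cortex-type glutamate neurons, and VTA samples differed in serotonin neuron transcripts, as given below beside the genes concerned.

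The labels were first checked against 3 marker genes, TH, SLC6A3 and NKX6-1. Levels are CPM, the counts of a gene scaled to a common total with library sizes scaled by TMM (a trimmed mean of gene ratios between samples), and they are compared between samples, never between genes. TH (ENSMMUG00000003912) stood at 782 CPM in SN of Rhesus 2, 899 in Rhesus 3, 1920.4 in Rhesus 4, 1535 in Rhesus 6, 1715 in Rhesus 7, 1498 in Rhesus 8, 1482 in Rhesus 10 and 1176 in Rhesus 11. In VTA the TH level was 14.9 CPM in Rhesus 2, 289 in Rhesus 3, 141 in Rhesus 4, 339 in Rhesus 6, 70.8 in Rhesus 7, 144 in Rhesus 8, 241 in Rhesus 10 and 33.9 in Rhesus 11. Every SN sample lay above every VTA sample, and the ratio of the highest to the lowest sample was larger in VTA than in SN. The paired difference (log2FC, SN over VTA) was 3.58 ± 0.40 (SE, n = 8 animals), with a false discovery rate (FDR) of 1.0e-05 in edgeR's quasi-likelihood F test with the animal as block. SLC6A3 (ENSMMUG00000005198), the transporter that returns dopamine to the neuron, ran from 286 to 905 CPM in SN (median 466) and from 4.49 to 59.8 in VTA (median 17), a log2FC of 4.76 ± 0.44 (FDR = 2.1e-06).

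Against the other sub-regions, SN had the highest mean and VTA the second highest of the 51 for TH, SLC6A3, DDC and SLC18A2. The next sub-region for TH was the olfactory bulb, with a mean of 71.2 CPM against 159 in VTA, and 3 of 8 VTA samples (Rhesus 2, 7 and 11) lay below that mean. The VTA samples thus held dopamine neuron transcripts, but at low and uneven levels. NKX6-1 (ENSMMUG00000021161), a homeodomain factor of the ventral midbrain and hindbrain, was at its 2 highest means in VTA and SN, and it was higher in VTA: 13.5 to 63.7 CPM (median 23.8) against 7.82 to 18.4 in SN (median 11.3), a log2FC of −1.20 ± 0.22 (FDR = 8.2e-04). The VTA sample was above the SN sample in 8 of 8 animals, although the groups overlapped. In bulk samples such as these, fewer cells of a type and less RNA per cell cannot be told apart.

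**Figure D1:**
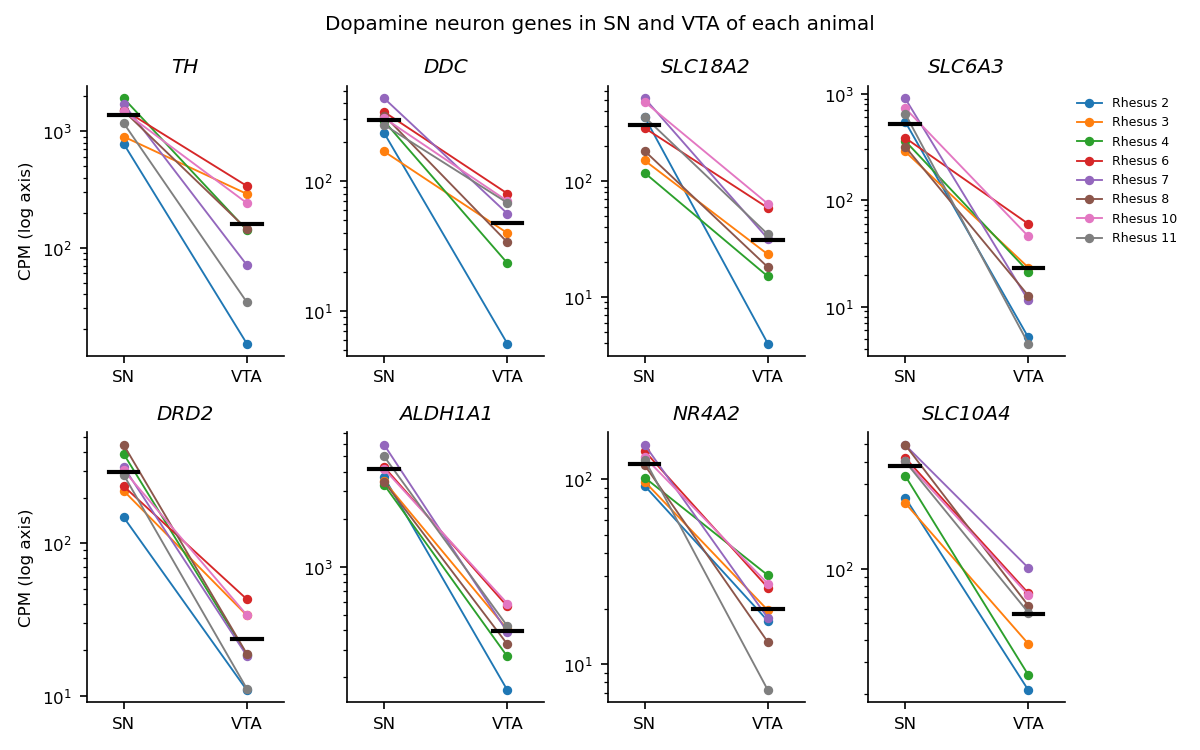
CPM (log axis) of 8 genes in the SN and VTA sample of each animal, joined by a line per animal, with black bars at the group means. For all 8 genes every SN sample lies above every VTA sample, and VTA of Rhesus 2 has the lowest level of TH (14.9 CPM), DDC, SLC18A2 and SLC10A4.

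Of 15619 genes tested, 4965 (31.8%) differed between SN and VTA at FDR below 0.05, 2466 of them higher in SN (15.8%) and 2499 higher in VTA (16%). Over 2-fold, 935 genes differed (5.99%), 441 higher in SN (2.82%) and 494 higher in VTA (3.16%). The samples of the regions did not overlap for 687 genes (4.4%). The median log2FC over all genes was 0.000526. A gene is called higher in a region here at FDR below 0.05, and each list below is to be read against these shares. With the animal left out of the model, 2770 of 14561 genes passed.

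**Figure D2:**
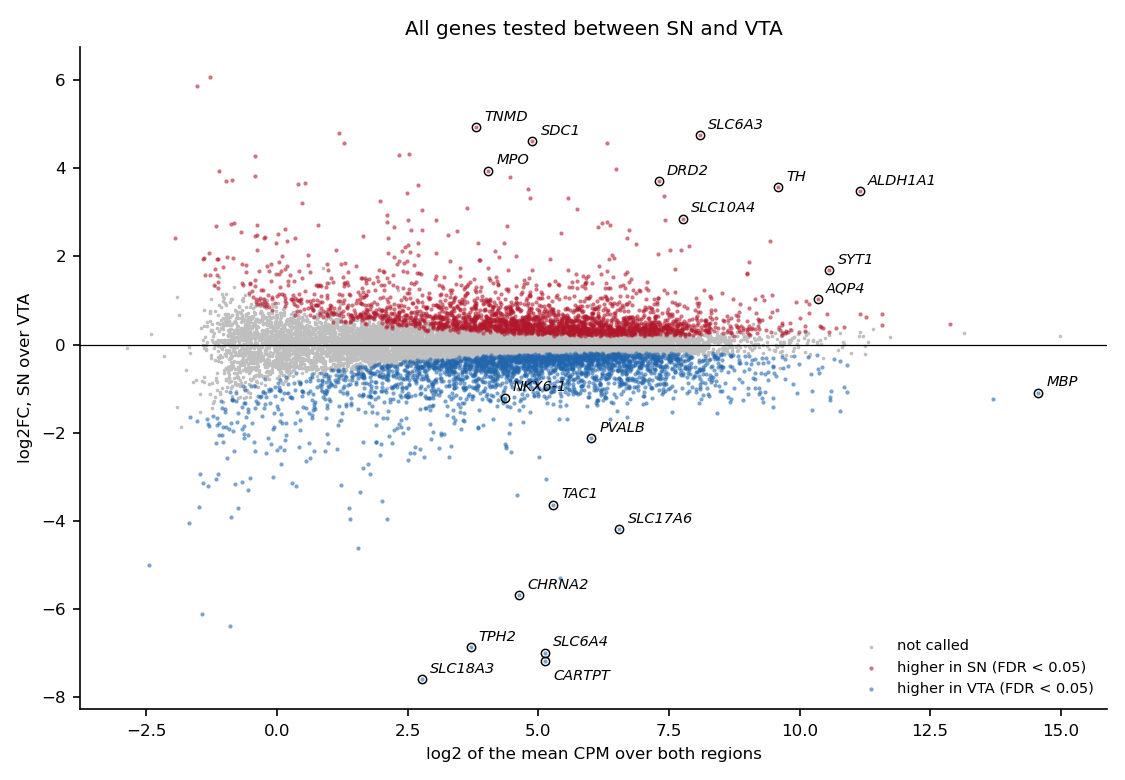
Each point is 1 of the 15619 genes tested, with the log2 of its mean CPM over both regions on the horizontal axis and its log2FC (SN over VTA) on the vertical axis. Red points (2466) were higher in SN and blue points (2499) higher in VTA at FDR below 0.05. The circled genes are named in the text.

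Genes that make and handle dopamine were higher in SN. Of the 16 genes of this list, 14 had an ID paired with their symbol and were tested; 11 were higher in SN, 9 of them over 2-fold, 1 was higher in VTA and 2 did not pass, with a median log2FC of 2.29. DDC, the decarboxylase, stood at 170 to 436 CPM in SN (median 299) and at 5.60 to 80.4 in VTA (median 48.1), with no overlap and a log2FC of 2.84 ± 0.29 (FDR = 4.3e-06). SLC18A2, the vesicular monoamine transporter, had a range of 118 to 520 CPM in SN (median 323) and of 3.97 to 63.9 in VTA (median 27.7), with a log2FC of 3.38 ± 0.31 (FDR = 1.9e-06). Both genes were lowest in VTA of Rhesus 2, the animal with the least TH there. ALDH1A1, which clears the aldehyde made from dopamine, was at 3309 to 5922 CPM in SN and 166 to 587 in VTA (log2FC 3.48 ± 0.17, FDR = 6.2e-09). The autoreceptor DRD2, by which dopamine neurons restrain their own firing, ran from 149 to 445 CPM in SN (median 292) and from 10.8 to 42.9 in VTA (median 18.7), a log2FC of 3.72 ± 0.24 (FDR = 7.4e-08). Its SN mean was second among the sub-regions to the putamen, where DRD2 marks a class of striatal output neuron.

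Smaller differences were found in the cofactor branch. GCH1, which starts the synthesis of the TH cofactor tetrahydrobiopterin, was higher in SN in 8 of 8 animals, at 11.3 to 27.7 CPM against 3.73 to 13.2 (log2FC 1.48 ± 0.16, FDR = 5.6e-06). QDPR, which regenerates that cofactor, was the member with the opposite direction, at 625 to 1108 CPM in SN and 1113 to 2286 in VTA (log2FC −0.68 ± 0.10, FDR = 1.5e-04). QDPR was also high in the corpus callosum (mean 2369 CPM), a tract without neuronal cell bodies. SLC10A4, a vesicular protein of aminergic and cholinergic neurons, was at 234 to 496 CPM in SN and 21 to 102 in VTA (log2FC 2.86 ± 0.15, FDR = 9.5e-09), and SV2C, a synaptic vesicle protein, had a log2FC of 1.74 ± 0.29 (FDR = 3.6e-04).

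The transcription factors of dopamine neurons went in both directions: of 11 tested, 4 were higher in SN, 2 were higher in VTA and 5 did not pass. NR4A2, the nuclear receptor that maintains the dopamine phenotype, was at 92.2 to 154 CPM in SN (median 124) and 7.24 to 30.3 in VTA (median 18.7), with no overlap and a log2FC of 2.67 ± 0.20 (FDR = 2.4e-07). VTA ranked only 20th of the 51 sub-regions for NR4A2. LMX1B, a LIM homeodomain factor of dopamine and serotonin neurons, was at 4.08 to 11.6 CPM in SN and 0.233 to 2.57 in VTA (log2FC 2.67 ± 0.27, FDR = 4.1e-06). SOX6, known in mouse as a mark of ventral-tier compacta neurons, had a range of 37.1 to 70.1 CPM against 13.3 to 27.2 (log2FC 1.44 ± 0.13, FDR = 1.5e-06). EBF3 was higher in SN in 6 of 8 animals (log2FC 0.90 ± 0.27, FDR = 0.018), and it was called neither with the animal left out of the model (adjusted p = 0.0527) nor without Rhesus 6, 7, 10 and 11 (log2FC 0.17). OTX2, known in mouse as a mark of medial VTA dopamine neurons, moved the other way, at 8.06 to 14 CPM in SN and 12.8 to 62.9 in VTA (log2FC −1.42 ± 0.20, FDR = 6.7e-05). Among VTA samples it was highest in Rhesus 2, with the least TH (14.9 CPM), and lowest in Rhesus 11, where TH was also low (33.9 CPM). Its mean was higher in the thalamus (68.4 CPM) and cerebellar vermis (44.5 CPM) than in VTA (32.9 CPM). Which VTA cells held OTX2 was not tested. FOXA2, a forkhead factor of all midbrain dopamine neurons, was at 5.2 to 12.6 CPM in SN and 0.183 to 17.6 in VTA, higher in SN in 4 of 8 animals, with a log2FC of 0.18 ± 0.43 (FDR = 0.78). LMX1A, a sister gene of LMX1B, had a log2FC of 1.39 ± 0.55 and was not called (FDR = 0.067).

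A list of genes tied to compacta dopamine neurons in rodents had 14 tested members, of which 10 were higher in SN and none higher in VTA (median log2FC 2.06). LMO3, a LIM-only cofactor, showed the tightest difference, with 112 to 193 CPM in SN and 16.9 to 31.5 in VTA (log2FC 2.78 ± 0.12, FDR = 2.2e-09). For LMO3, SN ranked only 23rd of the 51 sub-regions and VTA 46th, and the amygdala was highest (mean 266 CPM). ANXA1, an annexin of a ventral compacta subset in mouse, was at 67.3 to 174 CPM against 27.6 to 87.4 (log2FC 1.29 ± 0.19, FDR = 1.0e-04). The list shares ALDH1A1, DRD2, SLC6A3, KCNJ6, CHRNA6 and NTSR1 with other lists here. Genes tied to tegmental dopamine neurons had 10 tested members, of which 7 were higher in VTA and 1 higher in SN (median log2FC −1.17). Among them CALB2, a calcium-binding protein, was at 2.09 to 12.5 CPM in SN and 9.57 to 24.3 in VTA (log2FC −1.35 ± 0.21, FDR = 1.8e-04), and CALB1 was higher in VTA in 7 of 8 animals (log2FC −0.73 ± 0.19, FDR = 0.0087), with overlapping ranges and a call that was lost with the animal left out of the model (adjusted p = 0.26). In that model 4 members of the list were higher in VTA. The exception was CCK, a peptide often used as a tegmental dopamine marker: it ran from 1.99 to 33.1 CPM in SN (median 21) and from 1.98 to 21.2 in VTA (median 6.43). CCK was higher in SN in 7 of 8 animals (log2FC 1.18 ± 0.29, FDR = 0.0063), but the ranges overlapped almost fully and the call was lost with the animal left out of the model. The tegmental list shares SLC17A6, OTX2, CCK, NTS, GRP and NEUROD6 with other lists here. Which VTA cells held its members was not tested.

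Channels and receptors through which dopamine neurons pace and receive input were also higher in SN, 11 of 15 tested, with 1 higher in VTA and a median log2FC of 1.18. NTSR1, the receptor for neurotensin, was at 32.4 to 68.6 CPM in SN (median 53.9) and 0.350 to 11.3 in VTA (median 4.96), a log2FC of 3.34 ± 0.27 (FDR = 5.9e-07). KCNJ6, the potassium channel GIRK2 opened by DRD2, was at 2.87 to 11.2 CPM against 0.402 to 1.84 (log2FC 2.78 ± 0.18, FDR = 6.8e-08). Of the nicotinic receptor subunits in the list, CHRNA6, the subunit typical of dopamine terminals, had a log2FC of 2.69 ± 0.21, CHRNA5 one of 2.31 ± 0.21 and CHRNA4 one of 1.69 ± 0.17. RET and its partner GFRA1, the receptor pair for the trophic factor GDNF, had log2FCs of 2.03 ± 0.23 and 2.13 ± 0.26 and were higher in SN in 8 of 8 animals. SN was the highest of the 51 sub-regions for NTSR1, KCNJ6, CHRNA6, CHRNA5, RET and GFRA1. HCN2, a pacemaker channel shared with fast-firing neurons, was the member higher in VTA (44.3 to 96.7 CPM in SN, 72.5 to 156 in VTA; log2FC −0.67 ± 0.11, FDR = 4.1e-04).

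Among 18 tested genes linked to inherited Parkinson disease, 7 were higher in SN and 1 higher in VTA, and the list's median log2FC was 0.10. The share higher in SN was 7 of 18 beside 15.8% of all genes. UCHL1, a neuronal deubiquitinase, was at 1023 to 1888 CPM against 732 to 1077 (log2FC 0.73 ± 0.13, FDR = 4.8e-04), and LRRK2, a kinase, had a log2FC of 0.62 ± 0.11 (FDR = 6.0e-04). In Rhesus 3, UCHL1 was lower in SN (1023 CPM) than in VTA (1077 CPM). Its call was lost in mid-aged animals alone (adjusted p = 0.0931) and without Rhesus 6, 7, 10 and 11 (adjusted p = 0.138), both in edgeR's test. Without Rhesus 6, 7, 10 and 11, 2 members were called higher in SN. That fit of fewer animals called 815 of 15097 genes higher in SN over all genes, so calls fell in general.

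The iron handling list, included because iron accumulates in the SN, was not higher there: of 14 tested, 2 were higher in SN and 3 higher in VTA. TF, the iron carrier transferrin, made by oligodendrocytes in brain, was at 608 to 1484 CPM in SN and 2117 to 2926 in VTA (log2FC −1.50 ± 0.12, FDR = 4.4e-07). CP, the ferroxidase ceruloplasmin, was higher in SN (5.08 to 10.8 against 3.03 to 6.60 CPM; log2FC 0.73 ± 0.17, FDR = 0.0052).

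The genes with the largest differences towards SN described here, apart from SLC6A3 and DRD2, were not classical dopamine genes. SDC1, a cell-surface heparan sulfate proteoglycan, was at 31.2 to 90.0 CPM in SN (median 54.7) and 0.350 to 5.97 in VTA (median 2.05), with a log2FC of 4.62 ± 0.23 (FDR = 6.9e-09). TNMD, tenomodulin, a membrane glycoprotein best known from tendon, was at 7.17 to 75.7 CPM against 0 to 1.3 (log2FC 4.94 ± 0.32, FDR = 6.7e-08). The secreted cochlear protein OTOR and the palmitoyltransferase ZDHHC19 had log2FCs of 4.32 ± 0.24 and 4.30 ± 0.28. SN had the highest mean of all 51 sub-regions for SDC1, TNMD, OTOR and ZDHHC19. The haem peroxidases MPO and LPO, known from neutrophils and from secretory glands, lie next to each other in the gene order of the reference. MPO was at 9.12 to 52.9 CPM in SN and 0.550 to 5.52 in VTA (log2FC 3.95 ± 0.24), and LPO at 19.1 to 72.6 and 0.933 to 7.62 (log2FC 3.81 ± 0.22). The strand setting of the counting is not stated, and for neighbouring genes that overlap, shared reads cannot be told apart. The summed level of the 4 matched blood genes was at most 0.243 CPM in any SN sample and at most 0.350 in any VTA sample. These are red-cell genes, all 4 fell below the count filter, and their level tells nothing about neutrophils.

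A further 3 genes of this kind were scarce: ASB4 (119 counts over the 8 SN samples, 5 over the VTA samples), UOX (119 and 7) and MYL10 (101 and 5). Their log2FCs of 4.28, 3.82 and 3.73 rest on these few VTA counts. For UOX, urate oxidase, SN ranked 36th of the 51 sub-regions, so the difference came with a VTA mean that ranked 50th.

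Glutamate neuron genes were higher in VTA: of 6 tested, 4 were higher in VTA and 1 higher in SN (median log2FC −2.56). SLC17A6, the vesicular glutamate transporter VGLUT2 of subcortical neurons, was at 1.10 to 30.1 CPM in SN (median 6.80) and 101 to 389 in VTA (median 155), with no overlap and a log2FC of −4.19 ± 0.45 (FDR = 6.6e-06). SLC17A8, the transporter VGLUT3, found also in serotonin neurons, was at 0.347 to 4.26 against 2.03 to 19.3 CPM (log2FC −1.94 ± 0.34, FDR = 5.8e-04). Without Rhesus 6, 7, 10 and 11, picked because they had the most serotonin neuron transcripts in VTA, its log2FC was −2.99, a description and no test. POU4F1, a factor of red nucleus and habenula neurons, had 5 counts over the SN samples and 62 over the VTA samples. SLC17A7, the transporter VGLUT1 of cortical neurons, was at 96.7 CPM in SN of Rhesus 4 and 37.0 in SN of Rhesus 6, at 0 to 4.31 in the other SN samples, and at 0.817 to 16.2 in VTA (log2FC 0.34 ± 0.76, FDR = 0.77). These same SN samples had the highest SN levels of SLC17A6 (30.1 and 29.9 CPM). Without both animals the log2FC of SLC17A6 was −4.98.

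Serotonin neuron transcripts separated VTA samples from each other. SLC6A4, the serotonin transporter, stood at 241 CPM in VTA of Rhesus 11, 138 in Rhesus 7, 106 in Rhesus 6, 51.9 in Rhesus 10 and 12.8 in Rhesus 8, but at 2.32 in Rhesus 4, 0.703 in Rhesus 3 and 0 in Rhesus 2. In SN it was at most 1.21 CPM. TPH2, the first enzyme of serotonin synthesis, had the same order of samples at the top, with 97.2, 61.6, 24.3, 21.6 and 2.11 CPM in VTA of Rhesus 11, 7, 6, 10 and 8, and at most 0.268 in the other 3. The VTA samples thus ranged from no counts of either gene in Rhesus 2 to levels well above those of any SN sample. Over all animals SLC6A4 had a log2FC of −6.99 ± 0.57 (FDR = 6.0e-07) and TPH2 one of −6.87 ± 0.59 (FDR = 1.5e-06), against 38 and 15 counts over the 8 SN samples. In the 4 animals with the lowest VTA levels of both genes (Rhesus 2, 3, 4 and 8), which were picked by these levels, SLC6A4 had a log2FC of −2.81, a description and no test. VTA had the highest mean of the 51 sub-regions for both genes, ahead of the medulla oblongata. HTR1A, the serotonin autoreceptor, was at 0 to 0.552 CPM in SN and 0.467 to 6.32 in VTA (log2FC −3.15 ± 0.55, FDR = 5.4e-04). None of the 3 genes was tested in the model without the animal, where the count filter asks for more samples.

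DDC and SLC18A2 also serve serotonin neurons. Without Rhesus 6, 7, 10 and 11 the log2FC of DDC was 3.49, that of SLC18A2 3.66 and that of TH 3.57. Those animals were picked by their serotonin neuron transcripts in VTA. Their VTA samples also had the highest VTA levels of DDC (56.3 to 80.4 CPM, against 5.60 to 39.9 in the others). A larger DDC difference without them was thus built in, and these values are a description and no test.

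Other genes picked out different VTA samples. CHRNA2, a nicotinic subunit of interpeduncular and thalamic neurons, was at 183 CPM in VTA of Rhesus 2, 70.9 in Rhesus 3 and 64.3 in Rhesus 4, at 4.56 to 25.6 in the other 5, and at 0.221 to 1.59 in SN (log2FC −5.69 ± 0.54, FDR = 2.4e-06). NKX6-1 was also highest in VTA of Rhesus 2, 3 and 4 (63.7, 37.7 and 40.6 CPM), the samples lowest in SLC6A4. PTK2B, the tyrosine kinase gene next to CHRNA2 in the reference order, showed the same samples at the top, with 131, 64.1 and 52.7 CPM (log2FC −2.43 ± 0.28, FDR = 1.5e-05).

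SLC18A3, the vesicular acetylcholine transporter of motor and other cholinergic neurons, was at 42.9 CPM in VTA of Rhesus 8, 35.8 in Rhesus 7, 13.5 in Rhesus 4, 8.73 in Rhesus 10 and 6.90 in Rhesus 6, and at 0.100 to 0.367 in the other 3. Only 4 counts were found over the 8 SN samples, beside 1196 over the VTA samples, so the fitted log2FC of −7.59 rests on those 4 counts. CHAT, the acetylcholine synthesis enzyme whose gene encloses SLC18A3, was highest in VTA of Rhesus 7 (17.3 CPM) and Rhesus 8 (6.26) but higher in VTA in only 6 of 8 animals (log2FC −1.73 ± 0.65, FDR = 0.055). CARTPT, the precursor of CART peptides, found in the Edinger-Westphal nucleus among other places, followed yet another order, with 258 CPM in VTA of Rhesus 4, 116 in Rhesus 10, 109 in Rhesus 8, 50.9 in Rhesus 2, 16.1 in Rhesus 3 and 0.971 to 6.59 in the remaining 3. In SN it was at most 1.04 CPM (log2FC −7.18 ± 0.44, FDR = 3.8e-08). The list of oculomotor, red nucleus and interpeduncular neurons, which border the VTA, had 6 of 9 tested members higher in VTA and 1 higher in SN. How far such neighbouring nuclei contributed to each VTA block was not tested.

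**Figure D3:**
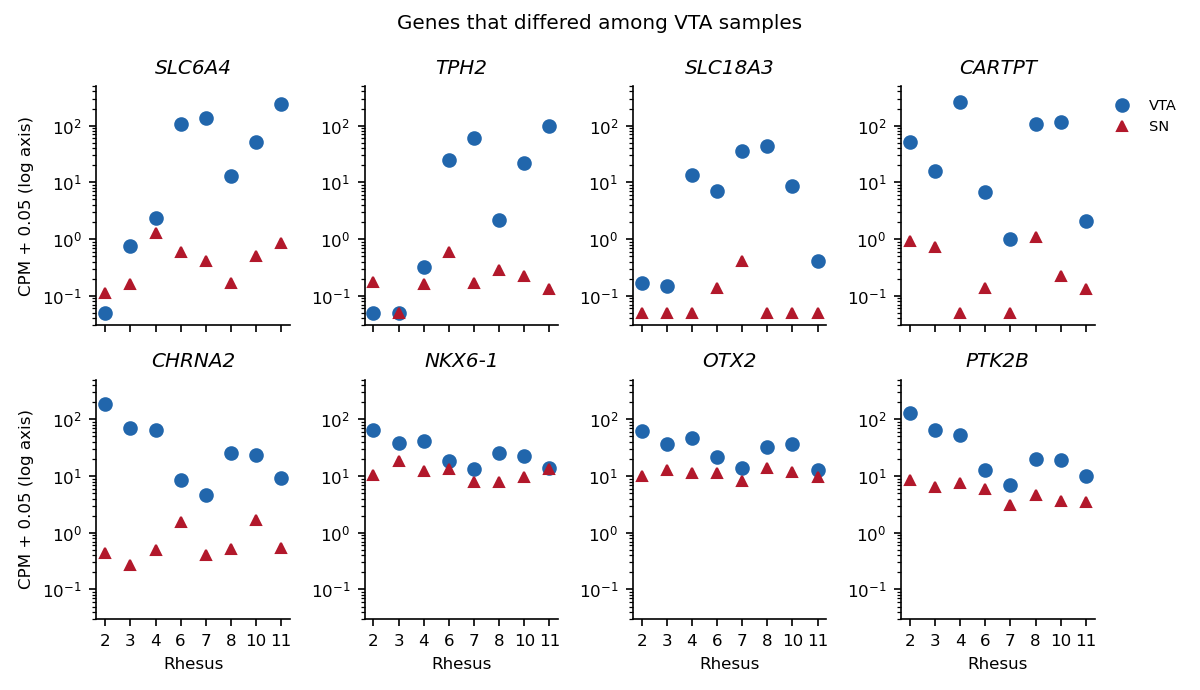
CPM + 0.05 (log axis) of 8 genes in each animal, with VTA as blue circles and SN as red triangles. SLC6A4 and TPH2 are high in VTA of Rhesus 6, 7, 10 and 11 and near the SN level in Rhesus 2, 3 and 4, where CHRNA2, NKX6-1 and PTK2B are highest.

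Neuropeptide genes were higher in VTA as a group: 18 of 23 tested were higher in VTA (14 over 2-fold), 1, CCK, was higher in SN and 4 did not pass, with a median log2FC of −1.40. The list also held the cerebellins CBLN1, CBLN2 and CBLN4, NXPH4 and the granins SCG2 and VGF, and its counts include them. TAC1, the substance P precursor, was at 3.48 to 7.72 CPM in SN and 46.2 to 183 in VTA, the largest peptide difference after CARTPT and one without overlap (log2FC −3.64 ± 0.19, FDR = 9.5e-09). NTS, the neurotensin precursor, was at 0.474 to 5.65 against 3.31 to 25.8 CPM (log2FC −2.37 ± 0.42, FDR = 6.2e-04), opposite in direction to its receptor NTSR1. CALCB (calcitonin gene-related peptide 2) and TRH had log2FCs of −2.93 ± 0.39 and −2.42 ± 0.53, and SST and PENK had −1.68 ± 0.30 and −1.70 ± 0.30. The highest PENK mean of the sub-regions was in the caudate nucleus (2231 CPM). Without Rhesus 6, 7, 10 and 11, 11 members of the list were called higher in VTA, beside 894 of 15097 genes over all. TRH was no longer called in that fit (log2FC −0.86, adjusted p = 0.38 in edgeR's test).

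Peptide receptors were divided, with 4 of 18 tested higher in SN and 7 higher in VTA. MC4R, a melanocortin receptor of appetite circuits, was at 3.86 to 21.1 CPM in SN and 0.7 to 9.07 in VTA (log2FC 1.56 ± 0.20, FDR = 3.5e-05). Higher in VTA were TACR1, the substance P receptor (0.729 to 2.83 against 4.20 to 12.6 CPM; log2FC −2.24 ± 0.24, FDR = 7.8e-06), and CRHBP, the binding protein of corticotropin-releasing hormone (log2FC −2.30 ± 0.22, FDR = 2.7e-06). GLP1R and NPY2R, receptors for GLP-1 and neuropeptide Y, had log2FCs of −3.14 ± 0.55 and −2.42 ± 0.45 on 6 and 14 counts over the SN samples.

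GABA neuron genes, which in SN would come mainly from the pars reticulata, were not higher in SN. Of 11 tested, none was higher in SN and 6 were higher in VTA (median log2FC −0.43). PVALB, the calcium buffer of fast-spiking neurons, was at 6.40 to 50.4 CPM in SN (median 24.3) and 35.7 to 164 in VTA (median 112), higher in VTA in 8 of 8 animals although the ranges overlapped (log2FC −2.12 ± 0.12, FDR = 3.0e-08). GATA3, a selector of midbrain GABA neurons, had a log2FC of −1.21 ± 0.16 (FDR = 4.8e-05). The GABA synthesis enzymes GAD2 (log2FC −0.96 ± 0.12, FDR = 3.5e-05) and GAD1 (−0.75 ± 0.13, FDR = 5.8e-04) and the vesicular transporter SLC32A1 (−0.43 ± 0.10, FDR = 0.0044) differed less. Ion channels of fast firing went the same way: 8 of 9 tested were higher in VTA. KCNC1 (Kv3.1), which allows brief spikes, had a log2FC of −1.26 ± 0.10, and SCN1A, a sodium channel, was at 57.8 to 107 CPM in SN and 145 to 304 in VTA (log2FC −1.20 ± 0.12, FDR = 4.7e-06). KCNAB3, a potassium channel β subunit, was the exception (log2FC 0.50 ± 0.11, FDR = 0.0023).

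Receptor genes were divided. For GABA-A and glycine receptors and glycine transporters, 8 of 19 tested were higher in VTA and 1 higher in SN. The glycine receptor subunit GLRA2 was at 2.65 to 10.5 CPM in SN and 7.43 to 69.9 in VTA (log2FC −2.25 ± 0.16, FDR = 2.2e-07), and SLC6A5, the transporter of glycine neurons, had 6 counts over the SN and 94 over the VTA samples. The GABA-A receptor subunit GABRA4 was higher in SN (log2FC 1.54 ± 0.25, FDR = 2.6e-04). Ionotropic glutamate receptors had 3 of 17 higher in SN and 5 higher in VTA, led by GRIK1 (−1.32 ± 0.16) and GRIA4, which was at 42 to 54.3 CPM in SN and 86.1 to 148 in VTA (−1.3 ± 0.08, FDR = 4.8e-08). Of 27 axon guidance genes, 5 were higher in SN and 10 higher in VTA. SLIT2, a repellent, was higher in VTA (14 to 39.3 against 42.2 to 65.9 CPM; log2FC −1.34 ± 0.13, FDR = 2.7e-06), while ROBO2, a receptor for it, was higher in SN (105 to 228 against 53.7 to 104 CPM; log2FC 1.17 ± 0.12, FDR = 4.7e-06). The largest differences of the list were those of SEMA3C (−1.64 ± 0.24) and EPHA3 (−1.53 ± 0.43), the latter not called without Rhesus 7 or without Rhesus 11 (log2FC −1.21 and −1.30).

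The genes named towards VTA had the 12 largest differences among genes with a mean of at least 1 CPM there and higher in VTA in 8 of 8 animals. SLC6A4 and TPH2 differed more but were not higher in VTA in every animal. The remaining genes of the 12 were PDGFD, a growth factor (0 to 0.441 CPM in SN, 2.62 to 11.5 in VTA; log2FC −4.62 ± 0.34), C1QL4 and C1QL3, secreted synaptic organizers (−3.97 ± 0.40 and −3.55 ± 0.35), FREM3, an extracellular matrix protein (−3.95 ± 0.37), ARHGAP36 (0.882 to 9.48 and 16.8 to 88 CPM; −3.42 ± 0.22), ITIH1 (−3.35 ± 0.25) and HES2 (9 counts in SN, 100 in VTA). VTA of Rhesus 7 was far above the other VTA samples for C1QL4 (30.1 CPM), FREM3 (13 CPM) and TAC1 (183 CPM). SN had the lowest mean of all 51 sub-regions for PDGFD. PTER, next to C1QL3 in the reference order, had a log2FC of −2.55 ± 0.35, and ZAR1, next to SLC10A4, one of 2.94 ± 0.20. Over the whole genome, 56 of 7955 neighbouring pairs had both genes called over 2-fold, 45 of them in the same direction.

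**Figure D4:**
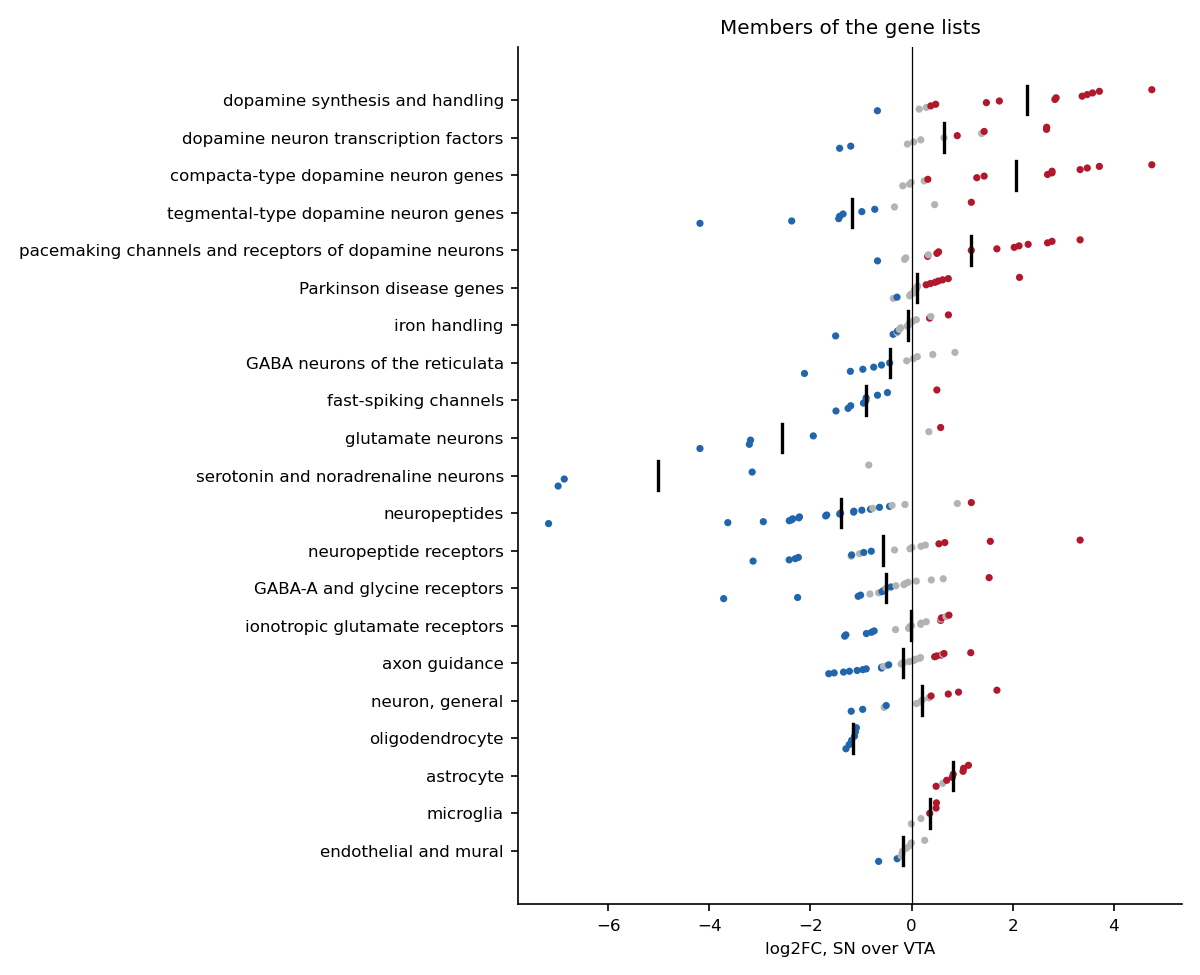
Each point is a tested member of a gene list at its log2FC (SN over VTA), red where higher in SN, blue where higher in VTA and grey where not called, with a black bar at the list's median. The dopamine handling and compacta lists lie to the right (medians of 2.29 and 2.06) and the tegmental-type dopamine, peptide, glutamate, fast-spiking and oligodendrocyte lists to the left.

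Glial transcripts also separated the regions. All 6 matched oligodendrocyte genes were higher in VTA, by a median log2FC of −1.16. MBP, the myelin basic protein, was at 9203 to 24331 CPM in SN and 26506 to 44479 in VTA (log2FC −1.09 ± 0.17, FDR = 2.0e-04). MOBP and ERMN, other myelin proteins, had log2FCs of −1.19 ± 0.14 and −1.3 ± 0.10. The summed level of the list ran from 16548 to 34189 CPM in SN and from 41778 to 65980 in VTA, so every VTA sample lay above every SN sample. Astrocyte genes went the other way, with 7 of 8 higher in SN and a median log2FC of 0.82. SLC1A3, an astrocytic glutamate transporter, was at 651 to 1156 CPM in SN and 226 to 734 in VTA (log2FC 1.13 ± 0.17, FDR = 1.3e-04), AQP4, the water channel of astrocyte end-feet, had a log2FC of 1.03 ± 0.28 (FDR = 0.012), GJA1, connexin 43, 1.02 ± 0.24 (FDR = 0.0051), and GFAP, the intermediate filament, 0.70 ± 0.23 (FDR = 0.034). With the animal left out of the model, 4 of the 8 astrocyte genes were called, and AQP4 (adjusted p = 0.0872) and GFAP (adjusted p = 0.0586) were not. GFAP also lost its call in 3 of the fits without 1 animal. Microglial genes were higher in SN for 3 of 5 tested, by small amounts (CSF1R 0.49 ± 0.11 and P2RY12 0.49 ± 0.17, the latter not called in 5 of the 8 fits without 1 animal), and for 1 of 5 with the animal left out of the model, and of 9 endothelial and mural genes 2 were higher in VTA (1 to 3 with 1 animal left out). The astrocyte sum was lowest in VTA of Rhesus 2 (1391 CPM, against 3073 to 6451 in the other VTA samples).

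General neuronal genes did not lean one way: 4 of 12 tested were higher in SN and 3 higher in VTA, and the summed level was higher in SN in 4 of 8 animals. SYT1, the calcium sensor of vesicle release, was at 1592 to 3422 CPM in SN and 423 to 1174 in VTA (log2FC 1.69 ± 0.10, FDR = 3.8e-08). Neurofilament genes of large axons were higher in VTA (NEFM −1.19 ± 0.27 and NEFL −0.97 ± 0.21), in 6 and 7 of 8 animals.

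Because the summed oligodendrocyte level did not overlap between the regions, a model that also held the mean level of the oligodendrocyte list in each sample was fitted. It left 27 genes at FDR below 0.05, 16 higher in SN and 11 higher in VTA, all of them called in the same direction without that term. Among them were SLC10A4 (log2FC 3.99, FDR = 0.0047), ALDH1A1 (3.63, FDR = 0.024), DDC (4.92, FDR = 0.038), SYT1 (2.06, FDR = 0.035), SLIT2 (−2.67, FDR = 0.0048), SLC18A3 (−13.2, FDR = 0.020), NKX6-1 (−3.38, FDR = 0.029), SCN1A (−2.14, FDR = 0.038) and OTX2 (−3.13, FDR = 0.038). Each of these log2FCs was larger in size than without that term (−7.59 for SLC18A3). They refer to an equal oligodendrocyte level in both regions, which no animal had, and so reach beyond the measured differences. TH and SLC6A3 had log2FCs of 3.24 (FDR = 0.42) and 3.03 (FDR = 0.48) in that model. Since the oligodendrocyte level was itself higher in VTA in 8 of 8 animals, region and oligodendrocyte content cannot be told apart in these samples.

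**Figure D5:**
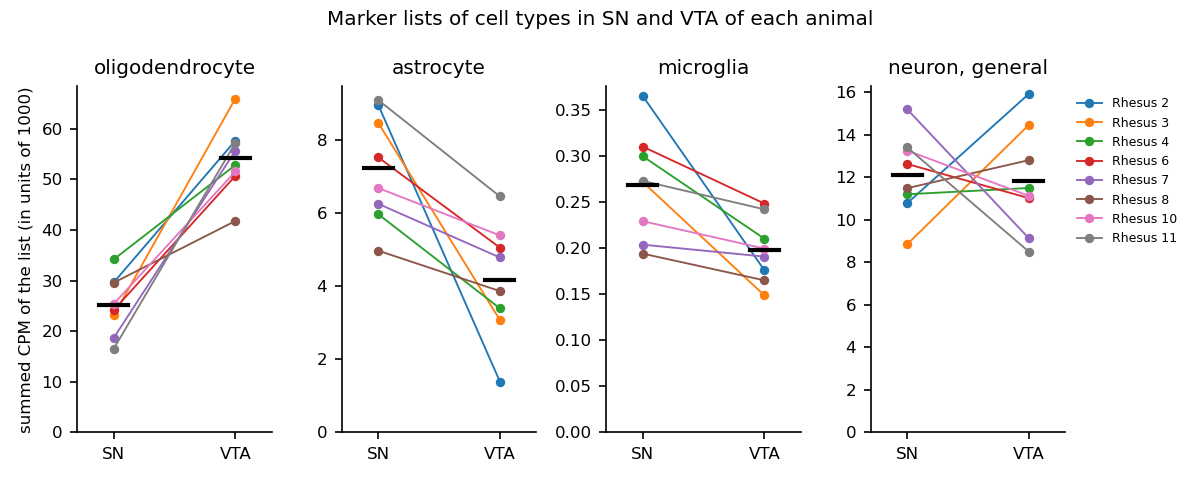
Summed CPM of the matched genes of 4 marker lists in the SN and VTA sample of each animal, joined by a line per animal, with black bars at the means. The oligodendrocyte sum is higher in VTA in 8 of 8 animals, the astrocyte and microglia sums are higher in SN in 8 of 8, and the neuronal sum is higher in SN in 4 of 8.

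Further lists were small or mixed. Oligodendrocyte precursor genes had 1 higher in SN and 2 higher in VTA of 6 tested, choroid plexus genes 2 of 4 higher in VTA (one of which was OTX2, shared with the dopamine factors), ependymal genes 1 and 2 of 5, and subthalamic and hypothalamic neuron genes 1 and 4 of 6. The telencephalon list had 1 and 1 of 5, and the only testable hindbrain HOX gene was higher in SN, a call lost in at least 1 fit with an animal left out. Immediate early genes had none of 8 higher in SN and 4 higher in VTA (1 to 4 with 1 animal left out), and heat shock and stress genes had 1 and 1 of 10.

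The paired difference was then compared between young and mid-aged animals and between males and females. For age stage no gene of 15619 passed (0%) in edgeR's interaction test, although 2610 genes (16.7%) had an unadjusted p below 0.05, and the smallest FDR was 0.158. DESeq2 called 153 genes for the same term, and edgeR called 62 without Rhesus 11. Fitted alone, the 4 young animals gave 4916 genes and the 4 mid-aged animals 2488, which is not a test of a difference between them. For sex no gene passed in edgeR's test (0%), with 230 genes at an unadjusted p below 0.05 and 1 gene called by DESeq2.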

How the data were processed

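RNA-seq of rhesus macaque SN and VTA was analysed from the deposited table of whole-number counts per gene, without normalization. By the methods and the submitters' processing notes, ribosomal RNA was removed, strand-specific libraries were sequenced, and the authors' processing ran Trim Galore 0.4.4 on poor-quality samples, HISAT2 2.0.5 for alignment (genome Mmul 8.0.1) and HTSeq 0.6.1 for counting over Ensembl genes. Strand and overlap options are not given in the sources used here. A reference table paired 17572 of the 30807 IDs with a symbol. The gene order came from the RefSeq annotation of another, newer build, so no coordinates are given. Promoter motifs were planned and not analysed here, and the authors' transcript assembly was not used.

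Counts were fitted with edgeR 4.0.16 (limma 3.58.1) in R 4.3.3: filterByExpr, TMM, animal as block, quasi-likelihood F test, with FDR adjusted by Benjamini-Hochberg over every gene in the fit. Standard errors (SE) were taken as |log2FC| over √F. CPM used TMM-scaled library sizes, over the 16 samples for values and over all 408 for ranks among sub-regions. The interactions of region with age stage and sex used the same model. Same-animal samples deviated together (r from 0.338 to 0.67 in the 8 animals), and the block came from the labels. The fit was tested on simulated data. Summaries used Python 3.11.15, pandas 2.3.3 and matplotlib 3.10.9. Alternatives were DESeq2 1.42.0, its size factors, a filter of a count above 1 in 3 samples, no filter, no replicate block, each animal left out, each age stage alone, higher fold thresholds and the oligodendrocyte level as covariate. Fits without Rhesus 4 and 6, and without Rhesus 6, 7, 10 and 11, were added after seeing the data.

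The region pair and the gene lists were chosen with earlier results of these data known, and a list count is a description. Genes named are the 12 per direction with a symbol, at least 1 CPM in the higher region, FDR below 0.05, the same direction in 8 of 8 animals and the largest log2FC, 3 markers, and list members with the largest log2FC. Genes next to a named gene and a few further members were named after their values were seen. Some genes that these rules name are not reported here, though list counts include them. At 8447320 counts or more per sample, genes with few counts are imprecise.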

Additional observations from a re-analysis of the deposited data

Results flagged for a closer look

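A sample far from the other 7 of its region was found in 36 of 274 groups of 8 examined (chance marks about 1 in 20). In VTA of Rhesus 2 these were high SLC17A6 (389 CPM), CHRNA2 (183 CPM), PTK2B (131 CPM), SEMA3C (37.4 CPM) and the summed glutamate neuron list (453 CPM), and a low summed telencephalon list (75.9 CPM). VTA of Rhesus 7 was highest in TAC1 (183 CPM), C1QL4 (30.1 CPM), CHAT (17.3 CPM) and FREM3 (13 CPM). VTA of Rhesus 4 was highest in CARTPT (258 CPM), CHRNA4 (21.4 CPM) and the summed ependymal list (29.5 CPM). Single genes were highest in VTA of Rhesus 3 (MBP, 44479 CPM, and POU4F1, 3.01 CPM), Rhesus 6 (SLC17A7, 16.2 CPM), Rhesus 8 (CALCB, 28.4 CPM), Rhesus 10 (LMO3, 31.5 CPM, and ASB4, 0.459 CPM) and Rhesus 11 (PENK, 157 CPM).

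In SN, Rhesus 4 was highest in SLC17A7 (96.7 CPM), KCNC1 (64.9 CPM) and the summed telencephalon (318.9 CPM), fast-spiking channel (743 CPM) and oligodendrocyte precursor (650.1 CPM) lists, and lowest in CHRNA5 (16.2 CPM). SN of Rhesus 6 was highest in the summed tegmental-type dopamine neuron list (379 CPM), NTS (5.65 CPM), EPHA3 (1.77 CPM) and TPH2 (0.53 CPM). SN of Rhesus 7 was highest in LMO3 (193 CPM), SLIT2 (39.3 CPM) and SLC18A3 (0.355 CPM), SN of Rhesus 8 in the summed choroid plexus list (20.1 CPM) and LMX1A (9.48 CPM), and SN of Rhesus 11 in FREM3 (0.971 CPM). No gene named in the report moved one way in all animals of an age stage or sex and the other way in all of the other.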

How the results depend on the processing

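With the animal left out of the model (no replicate block), 2770 genes differed, 1396 higher in SN and 1374 higher in VTA, and 2769 of them were also called with the block; FOXA2 had a log2FC of −0.0998, and EBF3, CALB1, CCK, AQP4, GFAP and P2RY12 lost their call (adjusted p from 0.0527 to 0.26). Leaving out each animal gave 4013 to 5072 genes, 1975 to 2559 higher in SN and 2024 to 2513 higher in VTA, with 0 to 62 genes for the age stage interaction (62 without Rhesus 11) and 0 to 0 for sex. Mid-aged animals alone gave 2488 genes (1220 and 1268), and the fit without Rhesus 6, 7, 10 and 11 gave 1709 (815 and 894). The oligodendrocyte covariate gave 27 (16 and 11). A log2FC above 1 left 935 genes (441 and 494) and above 2 left 190 (95 and 95). DESeq2 gave 153 genes for age stage and 1 for sex.

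FOXA2 ranged from −0.0935 to 0.461 over the fits without 1 animal (below 0 without Rhesus 7 and without Rhesus 11, −0.0868), and reversed in mid-aged animals alone (−0.00409), without Rhesus 6, 7, 10 and 11 (−0.752) and with the oligodendrocyte covariate (−3.51). SLC17A7 ranged from −0.500 to 0.892 over the fits without 1 animal (lowest without Rhesus 4) and reversed in DESeq2 (−0.258) and without Rhesus 4 and 6 (−1.09), and CHAT in mid-aged animals alone (0.115). With the oligodendrocyte covariate, ASB4 (−0.427), EBF3 (−1.54), TPH2 (3.51), SLC6A4 (0.157), HTR1A (2.09), TRH (0.148), MBP (0.659), MOBP (0.354) and EPHA3 (1.66) reversed. MBP, MOBP and ERMN belong to the list from which the covariate was made, so their change in that fit was built in. Of the 102 called named genes, 93 lost their call. In 42 of these 93 the log2FC was larger in the same direction, and the standard errors rose by a median factor of 3.68. The causes were not tested. Of these 102, 3 (EPHA3, GFAP and P2RY12) lost the call in at least 1 fit without 1 animal. Genes with few counts are limited by depth.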
